A study of Mus musculus with 6 samples.

Results

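The genes described here are the 5 transcription factor genes of the NF-kappaB family (Nfkb1, Nfkb2, Rel, Rela and Relb), the genes of 3 proteins that hold those factors in the cytoplasm (Nfkbia, Nfkbib and Nfkbie), Tnfaip3, which encodes the feedback inhibitor A20, and Il1b, which encodes the cytokine interleukin 1 beta. They were chosen by symbol, and all 10 were present among the 25628 symbols of the count table. RNA was sequenced from murine TgSpi1 erythroleukaemic cells, leukaemic erythroid cells from bone marrow that express a high level of PU.1, the product of Spi1, and that were cultured with erythropoietin (EPO). All the cells, controls included, carried a doxycycline-inducible shRNA against Spi1. The 3 doxycycline cultures received the drug for 48 h and the 3 untreated cultures did not, and the labels call the 3 of each condition biological replicates. No group had doxycycline without the shRNA, so an effect of the drug itself and that of the knockdown cannot be told apart. The labels identify a single leukaemic line by number, so the p-values measure the spread between cultures of that line.

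NF-kappaB factors bind DNA as dimers. In resting cells the inhibitors of the I-kappaB family mask them. Signals from receptors such as those for TNF and IL-1 activate the IKK kinases, which mark I-kappaB proteins for destruction and free p65 (Rela), c-Rel (Rel) and p50 (from Nfkb1) to enter the nucleus, whereas a slower branch processes the Nfkb2 product for pairing with RelB. Several inhibitor genes, among them Nfkbia, Nfkbie and Tnfaip3, are themselves classical targets of the pathway, which makes it self-limiting. In blood the pathway is best known from macrophages and lymphocytes, and PU.1 is a known activator of Il1b in monocytes.

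Total counts per library lay between 78926663 and 101276319. Spi1 stood at 415, 353 and 330 CPM (the count scaled by library size) in untreated replicates 1, 2 and 3 and at 84.8, 80.4 and 62.1 CPM with doxycycline. All 13 erythroid markers in the table exceeded 5 CPM in at least 1 library, and their summed level was 5620 to 6850 CPM untreated and 7474 to 10232 CPM with doxycycline. Tfrc and Car2 made up most of this sum, with means of 2101 and 1654 CPM untreated and 3099 and 3034 CPM with doxycycline. All 10 B cell markers stayed under 1 CPM. Untreated replicate 2 stood apart in neutrophil genes, with a summed 45.5 CPM against 0.725 and 10.4 CPM in the other untreated libraries and 0.34 to 11.8 CPM with doxycycline. Libraries with the same replicate number deviated together from their group means. Results are therefore given from edgeR's quasi-likelihood test, adjusted by Benjamini-Hochberg over all genes. They are given without the replicate number and, where the call differs or a member passed neither fit, with the number as a block. With the block the p-values measure the spread of the differences within numbers. Of the erythroid markers Car2 rose and none fell without the block, whereas 9 rose and 1, Hbb-bs, fell with it.

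Of the 10 genes, Il1b rose with doxycycline and none of the other 9 passed without the block, where 2.59% of all 14158 genes tested passed, 0.417% higher and 2.18% lower. With the block 5 passed: Il1b rose and Nfkb1, Rel, Nfkbia and Nfkbie fell. That is 1 of 10 higher and 4 of 10 lower, beside 10.3% higher and 15.6% lower among all genes, 25.8% in all. DESeq2 without the block called 2, Il1b higher and Rel lower, beside 6.13% of all genes, 1.94% higher and 4.19% lower. The untreated and doxycycline ranges did not overlap for 4 of the 10 (Nfkb1, Rel and Nfkbia lower, Il1b higher), beside 20.6% of all genes, 8.88% higher and 11.7% lower. The 3 within-number differences had the same sign for 7 of the 10, beside 57.4% of all genes. The median log2 fold change of the 10 was -0.21, against 0.01 over all genes. In these bulk samples fewer cells that express a gene and less RNA per cell cannot be told apart. Markers of some other cells were lower too. Mast cell and basophil markers summed to 26.9 to 84.8 CPM untreated and 17.5 to 56.1 CPM with doxycycline, and 5 of 7 tested fell with the block (none without it). Fcer1a made up most of the sum in numbers 1 and 2 and passed neither fit (block log2 fold change 0.18, edgeR adjusted p = 0.72). It was lower with doxycycline within numbers 1 and 2 and higher within number 3. Megakaryocyte and platelet markers summed to 210.3 to 399 CPM untreated and 139 to 226 CPM with doxycycline, and 5 of 9 tested fell and 2 rose with the block. The sum of T and NK cell markers went the other way within each number. It was 3.12 to 5.24 CPM untreated and 5.03 to 7.46 CPM with doxycycline. Of the 9 with a count, 8 were under 1 CPM in every library. Lck made up most of the sum, with means of 3.89 CPM untreated and 5.46 CPM with doxycycline. The 2 tested, Lck and Cd3g, rose with the block and did not pass without it. Within number 3 Cd3g did not rise (0.172 CPM untreated and 0.171 CPM with doxycycline). The sum of dendritic cell markers, given below, was also higher within each number. The part of other cells in the lower levels of the NF-kappaB and pathway genes was not tested.

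**Figure D1:**
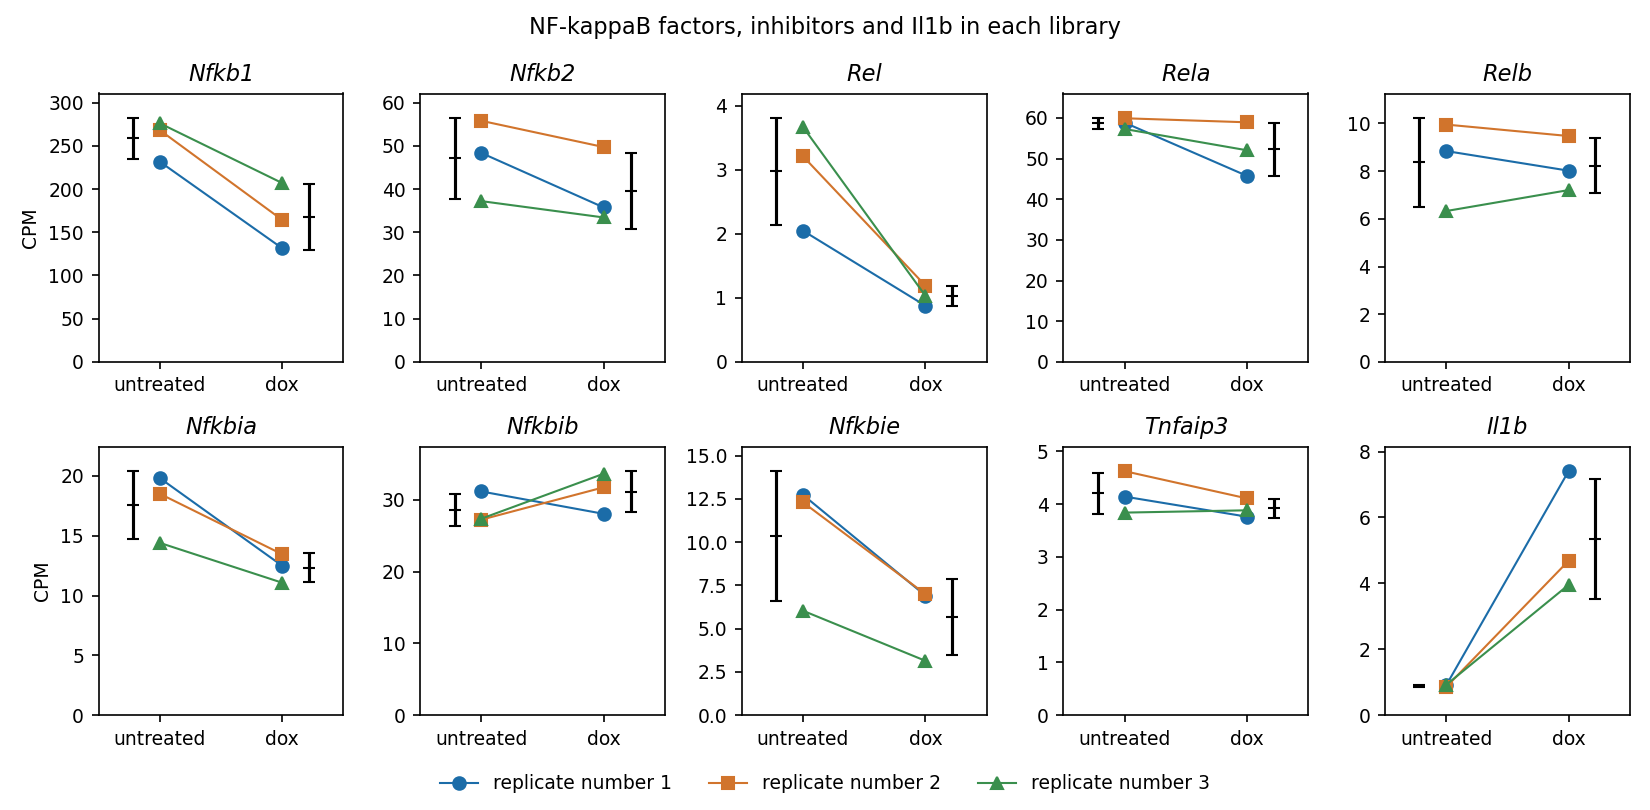
CPM of the 10 genes (y axes from 0) in untreated and doxycycline libraries; lines join libraries of the same replicate number, and the black bars beside them are mean and SD of 3 libraries. Il1b lies under 1 CPM in every untreated library and between 3.95 and 7.41 CPM with doxycycline, and each line of Nfkb1, Rel, Nfkbia and Nfkbie slopes down.

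The start-site sequences of the genes whose level moved are shown to let the reader see which of them carry a kappaB site, the element that NF-kappaB dimers bind, and an element of the kind PU.1 binds. The RefSeq promoter table (GRCm38.p6) held 8 of the 10 genes. Nfkb1 and Relb had no entry, so no window is shown for Nfkb1, which fell with the block. The windows below are the 250 bases before the start, read 5′ to 3′ on the gene's strand: Rel at chr11:23770970-23771219 (minus strand), Nfkbia at chr12:55492648-55492897 (minus), Nfkbie at chr17:45555450-45555699 (plus) and Il1b at chr2:129371140-129371389 (minus). Capitals mark a match on either strand to the kappaB consensus or to GAGGAAGT, a core of PU.1 sites.
Rel: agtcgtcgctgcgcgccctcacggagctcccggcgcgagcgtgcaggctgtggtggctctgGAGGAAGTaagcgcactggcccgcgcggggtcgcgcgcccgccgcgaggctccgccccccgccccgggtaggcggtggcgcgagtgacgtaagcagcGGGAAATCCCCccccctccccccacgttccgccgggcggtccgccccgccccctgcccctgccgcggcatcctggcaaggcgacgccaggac
Nfkbia: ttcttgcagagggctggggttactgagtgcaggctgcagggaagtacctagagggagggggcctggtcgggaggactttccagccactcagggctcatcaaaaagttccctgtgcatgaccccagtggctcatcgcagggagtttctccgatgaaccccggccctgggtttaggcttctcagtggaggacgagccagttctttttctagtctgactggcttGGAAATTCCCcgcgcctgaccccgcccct
Nfkbie: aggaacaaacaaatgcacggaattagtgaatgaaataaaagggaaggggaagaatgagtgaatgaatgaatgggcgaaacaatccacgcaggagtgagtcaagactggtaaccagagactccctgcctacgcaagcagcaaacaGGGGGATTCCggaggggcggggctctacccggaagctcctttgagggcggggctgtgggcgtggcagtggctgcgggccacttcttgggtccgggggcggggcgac
Il1b: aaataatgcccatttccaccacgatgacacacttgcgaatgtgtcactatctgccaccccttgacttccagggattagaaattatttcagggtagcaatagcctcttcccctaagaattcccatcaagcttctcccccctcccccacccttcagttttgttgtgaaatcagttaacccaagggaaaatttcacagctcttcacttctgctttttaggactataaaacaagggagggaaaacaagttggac
A kappaB match lay 92 to 82 bases before the start of Rel, 29 to 20 bases before that of Nfkbia and 106 to 97 bases before that of Nfkbie. In Rel the match is GGGAAATCCC on the plus strand and GGGGATTTCC, shifted by 1 base, on the minus strand. Nfkbia holds GGGAATTTCC on its minus strand and Nfkbie GGGGGATTCC on its plus strand. Of the 8 genes 5 had a match in at least 1 window (these 3, Nfkb2 and Tnfaip3), whereas Rela, Nfkbib and Il1b had none. Counted by window, 7 of the 11 windows of these genes held a match (Nfkb2 and Tnfaip3 have several), beside 3.90% of all 32817 mouse promoter windows of this length. GAGGAAGT occurred in Rel alone, 189 to 182 bases before the start, and in 2.44% of all windows. The shorter ETS core GGAAGT, which is part of GAGGAAGT, occurred in Rel, Nfkbia (211 to 206 bases before the start) and Il1b (187 to 182 bases, minus strand), and in 19.7% of all windows. These are matches of letters in a short window and show no binding. Sites that depart from these letters or lie outside the window were not searched, so a gene without a match may still hold such a site.

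Il1b had the largest fold difference of the 10 genes. It stood at 0.906, 0.854 and 0.920 CPM in untreated replicates 1, 2 and 3 (80, 67 and 91 counts) and at 7.41, 4.69 and 3.95 CPM with doxycycline (675, 456 and 394 counts). Every doxycycline library exceeded every untreated one, and the untreated libraries lay close together. The mean went from 0.893 ± 0.0347 to 5.35 ± 1.82 CPM (SD, n = 3 each), a 5.98-fold rise with a 95% interval of 3.63 to 9.83. On the log2 scale this is 2.58 (SE 0.31), with an edgeR adjusted p = 0.014, and 2.53 with an adjusted p = 1.9e-05 with the block. Within numbers 1, 2 and 3 the log2 difference was 3.0, 2.43 and 2.08. Of all genes tested 11 had a larger log2 fold change. Without the block the call was lost when untreated replicate 1 or 2 was left out (adjusted p = 0.066 and 0.072) although the log2 fold change was then 2.61 and 2.55.

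The Il1b gene (ENSMUSG00000027398.13, protein coding) lies on chromosome 2 from 129364570 to 129371139, minus strand, in GRCm38. The antisense non-coding gene Il1bos (129369897 to 129375748, plus strand) overlaps its 5′ part, and the annotated exons of the pair share 25 bases. Il1bos stood at 1.47, 0.88 and 1.15 CPM untreated and at 5.06, 3.28 and 2.33 CPM with doxycycline. Its groups did not overlap, and its libraries ranked as those of Il1b did within the doxycycline group. Its log2 fold change was 1.60, which did not pass without the block (edgeR adjusted p = 0.075) and passed with it (adjusted p = 3.9e-04). The kit does not mark the strand, so reads from the shared stretch and from unspliced RNA of either gene cannot be assigned. Il1a, the neighbouring cytokine gene, had counts of 1 or 2 in every library.

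Markers of other blood cells are given beside Il1b, and their part in its rise was not tested. Of the 13 monocyte and macrophage markers with a count, 9 were under 1 CPM in every library, Csf1r, Cd14 and Itgam among them. The summed level of the list was 22.6 to 32.3 CPM untreated and 17.3 to 23.6 CPM with doxycycline, most of it Ccr2, and 1 member fell and none rose without the block (4 fell and none rose with it). Of 14 neutrophil markers 9 were under 1 CPM throughout. None of the neutrophil markers passed without the block, and 2 fell with it. Dendritic cell markers summed to 1.42, 1.96 and 6.12 CPM in untreated replicates 1, 2 and 3 and to 3.09, 3.85 and 11.6 CPM with doxycycline, a higher value within each number. Of the 8 with a count, 7 were under 1 CPM in every library, and Zbtb46 made up most of the sum (2.64 CPM on average untreated and 5.79 CPM with doxycycline). Zbtb46 stood at 0.951, 1.24 and 5.73 CPM in untreated replicates 1, 2 and 3 and at 2.80, 3.40 and 11.2 CPM with doxycycline, with overlapping ranges. It did not pass without the block (edgeR adjusted p = 0.60) and rose with it (log2 fold change 1.3, SE 0.17, edgeR adjusted p = 3.7e-04).

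**Figure D2:**
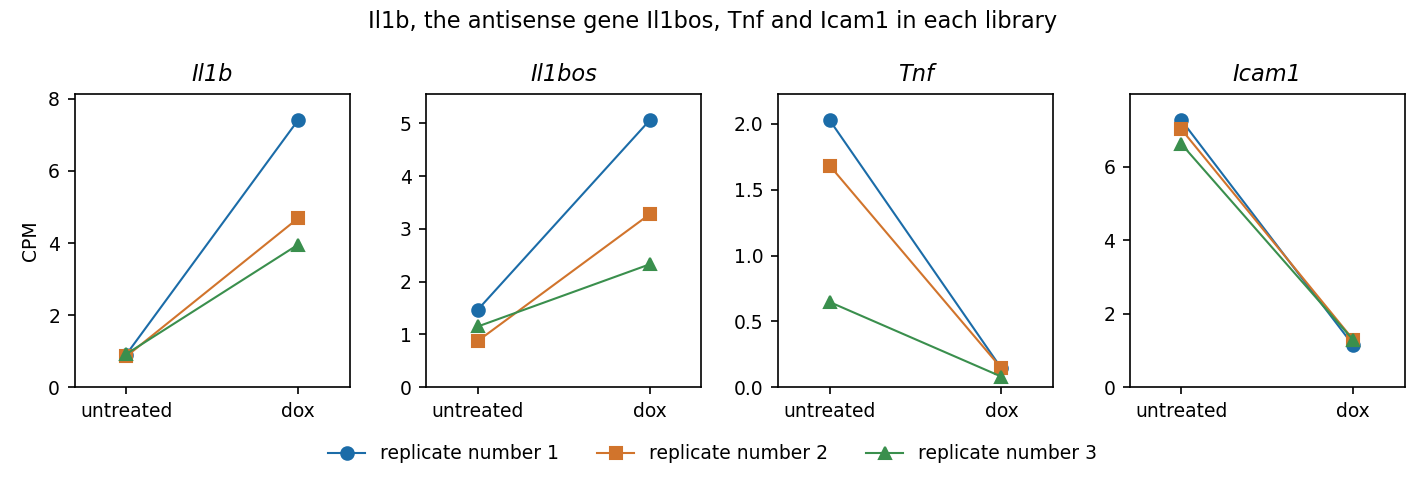
CPM (y axes from 0) of Il1b, the antisense gene Il1bos, Tnf and Icam1 in each library, joined by replicate number. Il1b and Il1bos are higher in all 3 doxycycline libraries, whereas Tnf and Icam1 are lower in all 3.

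Among the factors, Rel showed the largest fold difference. Rel encodes c-Rel, the subunit best known from lymphocytes and myeloid cells. It stood at 2.05, 3.21 and 3.67 CPM in untreated replicates 1, 2 and 3 and at 0.878, 1.19 and 1.03 CPM with doxycycline. The groups did not overlap, with means of 2.98 ± 0.835 and 1.03 ± 0.157 CPM (SD, n = 3 each). Doxycycline libraries thus held 0.348 of the untreated level (95% interval 0.213 to 0.569), a log2 fold change of -1.52 (SE 0.30) that missed the threshold of 0.05 narrowly with edgeR (adjusted p = 0.0503). Rel passed with the block (-1.50, SE 0.19, edgeR adjusted p = 2.7e-04) and with DESeq2 (-1.46, adjusted p = 2.6e-04). The log2 difference within numbers was -1.2, -1.41 and -1.81. Rel (ENSMUSG00000020275.9) lies on chromosome 11 from 23736847 to 23770970, minus strand.

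Nfkb1 encodes p105 and from it p50. It stood at 232, 268 and 276 CPM untreated and at 131, 164 and 207 CPM with doxycycline. All doxycycline libraries were below all untreated ones, with means of 259 ± 23.7 and 168 ± 37.8 CPM (SD, n = 3 each). The log2 fold change was -0.63 (SE 0.19, 95% interval -1.06 to -0.19, edgeR adjusted p = 0.16) without the block and -0.65 (SE 0.10, adjusted p = 1.0e-03) with it, and DESeq2 without the block did not call it (adjusted p = 0.24). Within numbers the log2 difference was -0.82, -0.71 and -0.42. Nfkb1 (ENSMUSG00000028163.17) lies on chromosome 3 from 135584655 to 135691547, minus strand.

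The other 3 factor genes did not pass either fit. Rela, which encodes the main activating subunit p65, stood at 58.9, 59.9 and 57.3 CPM untreated and at 45.8, 58.9 and 52.1 CPM with doxycycline. The ranges overlapped, and the block fit gave a log2 fold change of -0.17 with a 95% interval of -0.39 to 0.04. The fit without the block gave -0.17 (95% interval -0.50 to 0.17). Nfkb2, which encodes p100 and from it p52, stood at 48.3, 55.8 and 37.2 CPM untreated and at 35.7, 49.7 and 33.4 CPM with doxycycline. It was lower within each number (-0.44, -0.17 and -0.15), with a block log2 fold change of -0.25 (edgeR adjusted p = 0.089, 95% interval -0.47 to -0.03). The fit without the block also gave -0.25, with an interval that spans 0 (-0.77 to 0.27, edgeR adjusted p = 0.69). Nfkb2 shares 299 exon bases with Psd on the other strand, which stood at 0.555 to 1.27 CPM untreated and 1.12 to 3.70 CPM with doxycycline. Relb, the partner of p52, stood at 8.84, 9.95 and 6.33 CPM untreated and at 8.02, 9.47 and 7.21 CPM with doxycycline. Its block log2 fold change was -0.01 with a 95% interval of -0.30 to 0.28, and its sign was the opposite with DESeq2 and with upper quartile scaling. The fit without the block gave -0.02 (95% interval -0.57 to 0.52). Rela, Nfkb2 and Relb lie on chromosomes 19 (5637483 to 5648130, plus strand), 19 (46304320 to 46312385, plus) and 7 (19606217 to 19629438, minus).

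Of the 3 I-kappaB genes, Nfkbie and Nfkbia fell with the block and Nfkbib did not pass. Nfkbie encodes I-kappaB epsilon, which is known to bind c-Rel and p65. It stood at 12.7, 12.3 and 6.03 CPM in untreated replicates 1, 2 and 3 and at 6.91, 7.0 and 3.14 CPM with doxycycline. The ranges overlapped because number 3 was low in both groups, while the log2 difference within numbers was -0.88, -0.81 and -0.94. Without the block the fold change was -0.86 on the log2 scale (SE 0.40, edgeR adjusted p = 0.37), and with it -0.88 (SE 0.12, adjusted p = 6.2e-04), or 0.544 of the untreated level (95% interval 0.450 to 0.659).

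Nfkbia encodes I-kappaB alpha, the inhibitor that is degraded and remade fastest. It stood at 19.8, 18.5 and 14.4 CPM untreated and at 12.5, 13.5 and 11.1 CPM with doxycycline. The groups did not overlap, with means of 17.6 ± 2.82 and 12.3 ± 1.2 CPM (SD, n = 3 each). Without the block the fold change was -0.51 on the log2 scale (SE 0.18, edgeR adjusted p = 0.24), and with it -0.50 (SE 0.11, adjusted p = 0.0099), and the log2 difference within numbers was -0.67, -0.46 and -0.38. With the block and without number 1 the call was lost for Nfkb1 and Nfkbia (edgeR adjusted p = 0.0505 and 0.17) and held for Rel and Nfkbie (adjusted p = 0.011 and 0.034). That fit has fewer libraries and fewer residual degrees of freedom than the full block fit, so its p-values are less certain. Nfkbie lies on chromosome 17 (45555703 to 45563169, plus strand) and Nfkbia on chromosome 12 (55489410 to 55492647, minus).

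Nfkbib encodes I-kappaB beta and lies on chromosome 7 (28758251 to 28767512, minus strand). It stood at 31.2, 27.2 and 27.4 CPM untreated and at 28.0, 31.8 and 33.6 CPM with doxycycline. The log2 fold change was 0.12 without the block (95% interval -0.22 to 0.47) and 0.12 with it (95% interval -0.13 to 0.38). Nfkbib was lower with doxycycline within number 1 and higher within numbers 2 and 3. It shares exon bases with Ccer2 (314 bases) and Sirt2 (42 bases) on the opposite strand. Ccer2 was near 0, and Sirt2 stood at 61.1 to 71.7 CPM untreated and 72.2 to 104.6 CPM with doxycycline. Tnfaip3, whose product A20 removes the ubiquitin chains on which IKK activation depends, did not pass either fit and lies on chromosome 10 (19000910 to 19015657, minus strand). It stood at 4.14, 4.63 and 3.84 CPM untreated and at 3.76, 4.11 and 3.88 CPM with doxycycline. The log2 fold change was -0.10 without the block (95% interval -0.58 to 0.37) and -0.10 with it (95% interval -0.41 to 0.22).

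**Figure D3:**
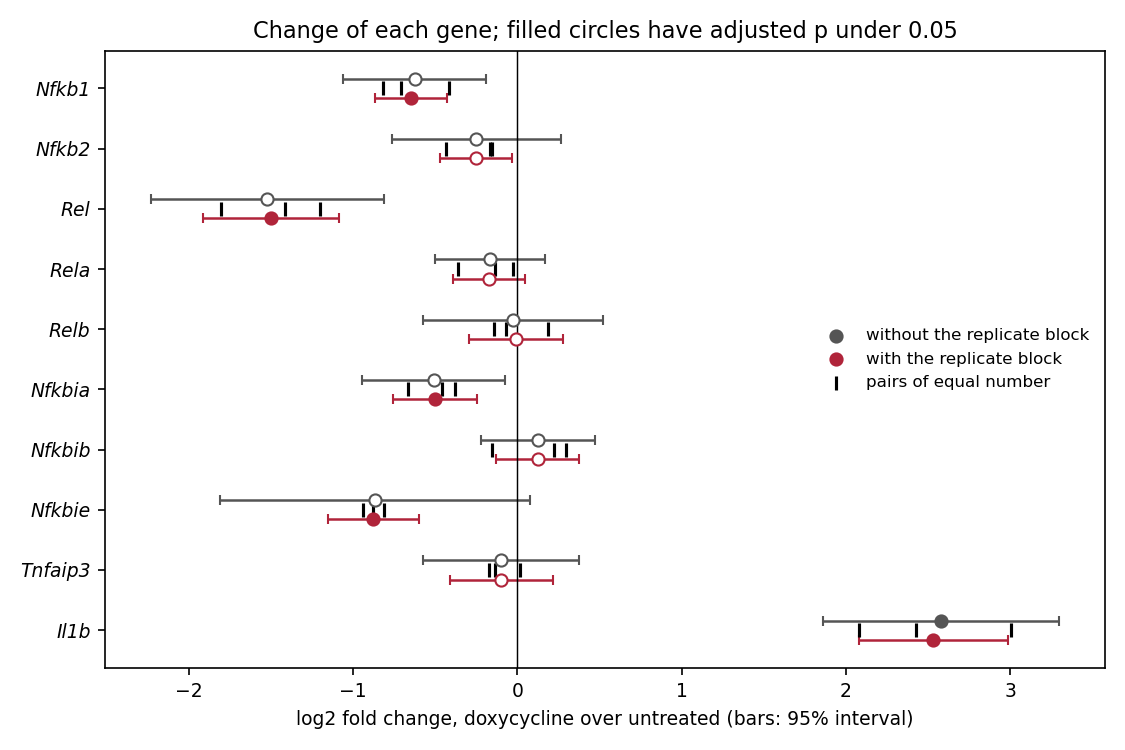
log2 fold change (x axis) of the 10 genes without (grey) and with (red) the replicate block; bars are 95% intervals, filled circles have an adjusted p under 0.05, and vertical ticks are the 3 within-number differences. The interval of Nfkbie narrows most with the block, and the interval of Relb spans 0 in both fits.

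Some of the genes also differed between replicate numbers. In a test of the replicate number added after the data were examined, 3 of the 10 genes passed: Nfkbie (edgeR adjusted p = 8.3e-04), Nfkb2 (adjusted p = 0.011) and Nfkb1 (adjusted p = 0.032). Among all genes 43.3% passed this test. The mean deviation of number 3 from the group means was -0.73 on the log2 CPM scale for Nfkbie, -0.27 for Nfkb2, -0.28 for Relb and -0.21 for Nfkbia, and 0.21 for Nfkb1. Relb and Nfkbia did not pass (edgeR adjusted p = 0.055 and 0.13). The share of the 10 that passed was below that of all genes, so nothing about the 10 as a group is read from it. What a replicate number denotes is not in the labels.

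**Figure D4:**
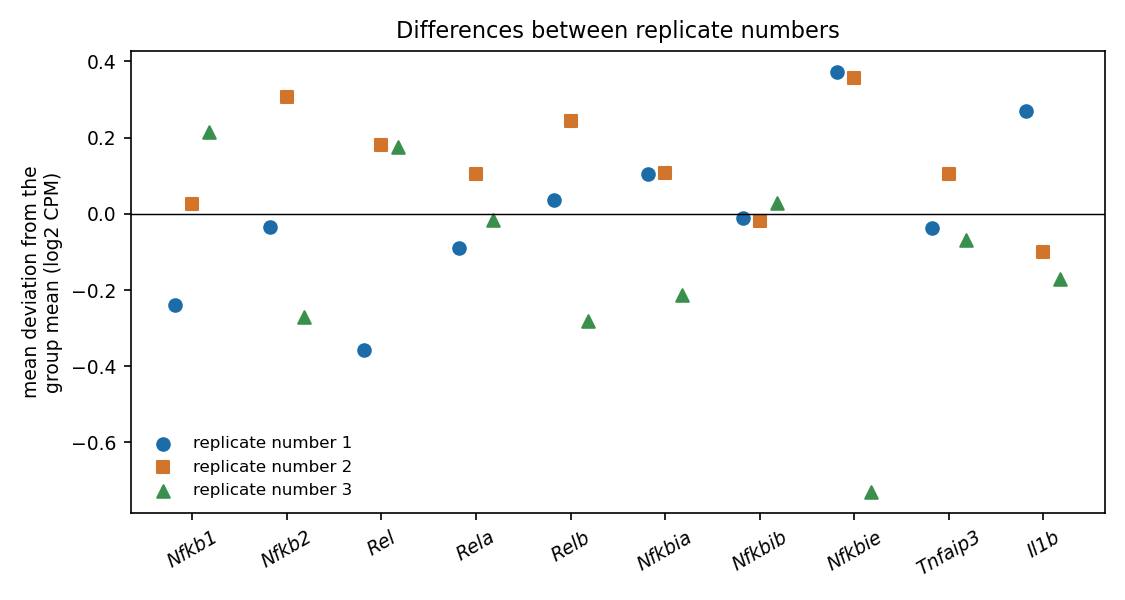
Mean deviation of each replicate number from the group means (y axis, log2 CPM, over both groups) for the 10 genes. Number 3 is lowest for Nfkbie at -0.73 and highest for Nfkb1 at 0.21, and the numbers lie within 0.05 of 0 for Nfkbib.

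Levels were compared between genes as CPM per kilobase of the principal annotated transcript, a length chosen after the data were examined. In untreated cells the order was Nfkb1 (62.8 ± 5.76), Rela (21.6 ± 0.489), Nfkb2 (15.0 ± 2.98), Nfkbib (13.9 ± 1.08), Nfkbia (11.1 ± 1.79), Nfkbie (4.25 ± 1.54), Relb (3.79 ± 0.841), Tnfaip3 (0.951 ± 0.0896), Il1b (0.659 ± 0.0256) and Rel (0.399 ± 0.112; SD, n = 3 each). The ranges of Nfkb2 and Nfkbib, of Nfkb2 and Nfkbia, and of Nfkbie and Relb overlapped. Rel was the scarcest of the 5 factors. With doxycycline Il1b reached 3.94 ± 1.34 CPM per kilobase, in the range of Relb (3.73 ± 0.520), and Rel stood at 0.139 ± 0.0210 (SD, n = 3 each). The order depended on the length used. Over the union of all annotated exons the untreated levels were 21.4 ± 1.97 for Nfkb1, 19.1 ± 0.433 for Rela, 13.2 ± 1.03 for Nfkbib, 10.9 ± 1.75 for Nfkbia and 10.3 ± 2.04 CPM per kilobase for Nfkb2 (SD, n = 3 each), so that Nfkb1 and Rela overlapped and Nfkb2 came after both inhibitors. With doxycycline on that length Rela came first (17.0 ± 2.15), before Nfkbib (14.4 ± 1.31) and Nfkb1 (13.9 ± 3.14; SD, n = 3 each), with overlapping ranges. Il1b, at 2.80 ± 0.954, then lay with Relb at 2.12 ± 0.296 CPM per kilobase (SD, n = 3 each). Rel had the lowest mean of the 10 on both lengths and in both groups. Over the union of exons its untreated range (0.275 to 0.491 CPM per kilobase) overlapped that of Il1b (0.448 to 0.482).

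In the summed level per kilobase of the 5 factor transcripts, Rela made up 20.9% ± 1.1 untreated and 25.3% ± 2.0 with doxycycline (SD, n = 3 each). Nfkb1 made up 60.6% ± 3.79 and 53.0% ± 6.30, with overlapping ranges. In that of the 3 inhibitor transcripts, Nfkbib made up 47.8% ± 4.92 and 59.9% ± 5.61, and Nfkbia 38.0% ± 1.23 and 30.9% ± 2.14 (SD, n = 3 each). The groups did not overlap for the shares of Rela, Nfkbib and Nfkbia, nor for the small share of Rel (0.383% ± 0.097 and 0.182% ± 0.015, SD, n = 3 each). Over the union of exons Nfkb1 made up 40.2% ± 3.58 and 33.1% ± 5.56 and Rela 35.9% ± 1.48 and 40.7% ± 1.45 (SD, n = 3 each), so the size of both shares rests on the length, while the shares of Rela were again higher and did not overlap. The inhibitors' shares moved little with the length (Nfkbib 48.3% and 60.1%, Nfkbia 39.6% and 32.1%). These shares are a description, since shares of one sum move together.

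The other genes of the pathway were taken from 5 lists, which hold 140 distinct genes. Of these 129 were in the table and 81 passed the filter on low counts. None rose and 8 fell without the block, and 6 rose and 34 fell with it, beside the shares of all genes given above (2.18% lower without the block and 15.6% with it). Leaving out any 1 library without the block left 1 or 2 of the 4 targets, 0 or 1 of the 2 other inhibitors and 0 to 2 of the 2 IL-1 list genes that fell. A gene could pass the filter through the group in which it was high, and 3 genes stand on 2 lists.

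NF-kappaB target genes made up 4 of the 8 that fell: Icam1, Tnf, Cflar and Xiap. Icam1, an adhesion molecule of leukocytes and endothelium, went from 6.96 ± 0.327 to 1.24 ± 0.0860 CPM (SD, n = 3 each; log2 fold change -2.49, SE 0.21, edgeR adjusted p = 0.0041). Tnf, the cytokine that activates the pathway, went from 2.03, 1.68 and 0.647 CPM to 0.143, 0.144 and 0.0803 CPM (-3.56, SE 0.52, adjusted p = 0.021). It thus fell in the same libraries in which Il1b rose. Tnf had 179, 132 and 64 counts untreated and 13, 14 and 8 with doxycycline, so the size of its fall rests on few reads. With 1 taken off each count it passed again (log2 fold change -3.67, edgeR adjusted p = 0.021). Cflar, which encodes the caspase-8 inhibitor c-FLIP, went from 27.5, 36.2 and 31.6 CPM to 11.5, 15.9 and 14.2 CPM (-1.2, SE 0.19, adjusted p = 0.025). Xiap, an inhibitor of caspases named because it completes the count, went from 96.8 to 55.0 CPM on average (-0.82, SE 0.15, adjusted p = 0.036). Of 17 tested among 39 in the table and 43 listed, 1 rose and 9 fell with the block, with a median log2 fold change of -0.92 without it. Many cytokine and chemokine genes of the list had too few reads to test, such as Il6, with at most 7 counts in any library, and Ccl2, with 1 count in each.

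Of 20 tested genes among the other inhibitors, Pdlim2 and Tax1bp1 fell and none rose. With the block 7 fell and 1 rose. Pdlim2, a nuclear ubiquitin ligase for p65, had 39, 27 and 84 counts untreated and 2, 3 and 8 counts with doxycycline (edgeR adjusted p = 0.027, and 0.032 with 1 taken off each count). It passed the filter through the untreated libraries alone, and the lowest deposited value was 1, so no fold is given. Tax1bp1, a partner of A20 and an autophagy receptor, went from 179, 239 and 208 CPM to 107, 136 and 109 CPM (log2 fold change -0.83, SE 0.16, edgeR adjusted p = 0.0496), and no longer passed with 1 taken off each count (adjusted p = 0.0507). The median of this list was -0.18.

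Of 9 tested genes of the IL-1 family and the inflammasome, the complex that matures interleukin 1 beta protein, Gsdmd and Nlrc4 fell and none rose. With the block 3 fell and 1 rose. Gsdmd encodes gasdermin D, the pore through which mature interleukin 1 beta leaves cells, and went from 25.8, 22.4 and 22.7 CPM to 8.44, 9.33 and 10.1 CPM (log2 fold change -1.34, SE 0.16, edgeR adjusted p = 0.014). Nlrc4, an inflammasome sensor, had 12, 11 and 20 counts untreated and 1, 2 and 1 counts with doxycycline (adjusted p = 0.018). These doxycycline counts may stand for 0 or 1 read, and no fold is given here either. Casp1, the protease that cleaves the interleukin 1 beta precursor, had between 2 and 20 counts, and Nlrp3 1 or 2 counts in every library. The median of the list was -0.33.

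None of the 9 tested receptors and none of the 28 tested kinases and adaptors passed without the block. With it 1 receptor rose and 5 fell, and 3 kinases or adaptors rose and 10 fell. Their medians without the block were -0.59 and -0.13. By the mean CPM over all 6 libraries the highest receptors were Il1rap, the shared chain of IL-1 receptors (23.1 ± 3.66 and 24.9 ± 4.73 CPM), and Ltbr, the lymphotoxin beta receptor (15.2 ± 5.39 and 9.81 ± 4.36 CPM; SD, n = 3 each). Ltbr fell with the block (log2 fold change -0.68, SE 0.13, edgeR adjusted p = 0.0039). By the same mean the highest kinases and adaptors were Chuk, which encodes IKK alpha (289 ± 34.6 and 349 ± 28.0 CPM), and Tab2, an adaptor of the kinase TAK1 (161 ± 26.6 and 174 ± 33.6 CPM; SD, n = 3 each). Chuk rose with the block (0.28, SE 0.09, edgeR adjusted p = 0.049). By the means of a single group the order differs. Irak1, a kinase of the IL-1 receptor complex, had a higher mean than Tab2 in untreated cells (172 ± 61.4 CPM, SD, n = 3). In untreated replicate 3 Irak1 lay below Tab2 (102 against 170 CPM). Irak1 stood at 90.3 ± 37.1 CPM with doxycycline (SD, n = 3), a fall with the block (-0.95, SE 0.09, edgeR adjusted p = 6.8e-05). With doxycycline the means of Il1r1 (10.9 CPM) and Tnfrsf1a (9.81 CPM) were level with or above that of Ltbr. The libraries did not share this order. In doxycycline replicates 1, 2 and 3 Il1r1 stood at 3.94, 5.19 and 23.5 CPM, so its mean rests on replicate 3. Tnfrsf1a stood at 12.3, 12.9 and 4.23 CPM and Ltbr at 13.0, 11.5 and 4.85 CPM. Irak1, Il1r1 and Tnfrsf1a were chosen after their values were seen.

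**Figure D5:**
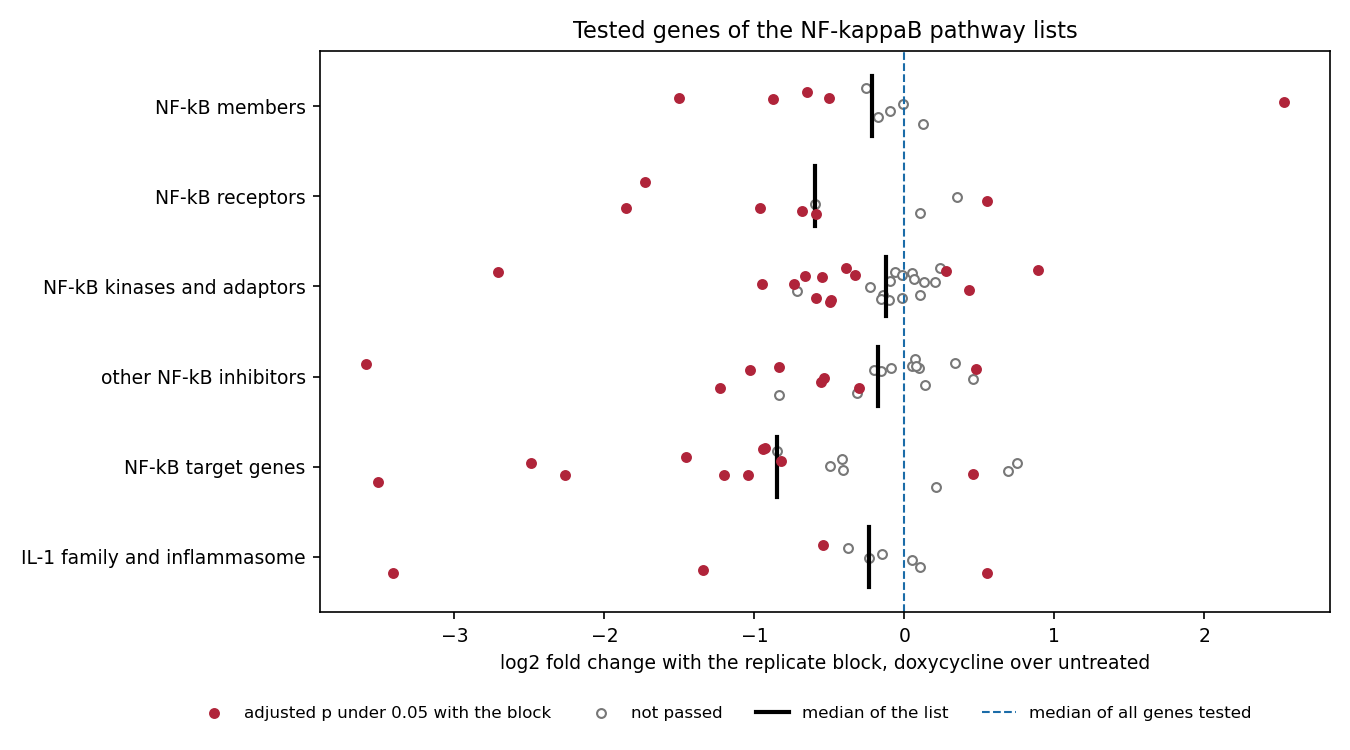
log2 fold change with the replicate block (x axis) of each tested gene of the 10 members and of the 5 other pathway lists; red points have an adjusted p under 0.05 with the block, black bars are list medians and the dashed line is the median of all genes tested. Il1b is the point farthest to the right, and the bar of the target genes lies farthest to the left.

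Among 9294 genes of at least 5 CPM on average, those whose log2 CPM followed Il1b most closely over the 6 libraries were Rrm2b, a ribonucleotide reductase subunit (Pearson r = 0.998), Plk4, a kinase of centriole duplication (r = 0.994), and Zfp667, a zinc finger gene (r = 0.991). The correlation takes in the difference between the groups. None of the 3 passed without the block (edgeR adjusted p = 0.17, 0.13 and 0.10), and all 3 rose with it (adjusted p = 0.0092, 0.0054 and 0.0038). This is a description over 6 libraries that share their grouping.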

How the data were processed

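Poly(A) RNA of 6 cultures was sequenced from TruSeq RNA v2 libraries, per the labels' protocols. The authors deposited raw counts per gene symbol, 1 column per library. The submitters' processing notes name bcl2fastq 2.17.1.14, STAR, DESeq2 and the builds mm10 and GRCm38. For the counter, its annotation and its strand setting, no statement is given in the sources used here. The smallest deposited count was 1 in each column, so 1 appears to have been added, and taking it off was an alternative.

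Counts as deposited were tested with edgeR 4.0.16 (limma 3.58.1, R 4.3.3): TMM factors, filterByExpr, the quasi-likelihood F test, two-sided, Benjamini-Hochberg adjusted p under 0.05 over 14158 genes. CPM use TMM-scaled library sizes. The SE is the size of the log2 fold change over the square root of F. Within-number differences are of log2 CPM with a prior count of 2. DESeq2 1.42.0 and the replicate number as a block were alternatives. Equal numbers count as pairs, since their deviations from the group means correlated at 0.77, 0.74 and 0.72, each over 0.1 (unlike numbers -0.59 to -0.09). The deviations of a group cancel out for each gene, so the values of unlike numbers are no independent contrast. Residual degrees of freedom were 4 without the block and 2 with it, and fewer where libraries were left out. The edgeR step was tested on simulated counts. Libraries held 78926663 to 101276319 counts, so that the number of cultures, more than depth, limits precision for genes of 5 CPM or more. The members, lists, tests and alternatives were chosen with earlier results of these data known. Named were the 10 members, Spi1, up to 3 genes with the smallest adjusted p of each other list (or the 2 with the highest mean CPM over the 6 libraries where none passed) and the 3 genes most like a called member. Positions, lengths and overlaps came from GENCODE M21 (GRCm38). The principal transcript is the one that APPRIS ranks first. Members of lists that had no row under their symbol or an older one were not analysed here.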

Additional observations from a re-analysis of the deposited data

How the results depend on the processing

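With the replicate block, 1452 genes rose and 2206 fell in place of 59 and 308. Of the 10 NF-kappaB genes 4 fell with it in place of none, 1 receptor rose and 5 fell, 3 kinases or adaptors rose and 10 fell, 1 other inhibitor rose and 7 fell, 1 target rose and 9 fell, and 1 gene of the IL-1 list rose. DESeq2 called 294 higher and 636 lower over all genes, 1 of the 10 genes lower, 2 receptors lower, 1 kinase or adaptor higher and 1 lower, 1 other inhibitor higher and 8 targets lower. DESeq2 with the replicate block called 1736 higher and 1660 lower, 4 of the 10 lower, 1 receptor higher and 5 lower, 3 kinases or adaptors higher and 9 lower, 2 other inhibitors higher and 5 lower, 1 target higher and 8 lower, and 1 IL-1 list gene higher. Without the low count filter 1 receptor and 1 other inhibitor fell, and with 1 taken off each count 1 other inhibitor fell. Leaving out each library in turn gave 0 to 26 higher and 35 to 242 lower genes, 0 to 1 of the 10 higher, 0 to 1 kinases or adaptors, 0 to 1 other inhibitors, 1 to 2 targets and 0 to 2 IL-1 list genes lower. Where this leaves an arm of 2, the spread is pooled over both groups. Added after seeing the data, the block without each number gave 368, 1310 and 2071 higher and 880, 2119 and 2677 lower genes without numbers 1, 2 and 3, and 2, 4 and 5 of the 10 lower, and the block with 1 taken off each count 1400 and 2162, with 4 of the 10 lower. The cause of these shifts was not tested. Relb, uncalled in each of these fits, changed sign with DESeq2 (log2 fold change 0.051, and 0.058 with the block), with upper quartile factors (0.016), without untreated 1, untreated 2 or doxycycline 3 (-0.19 to 0.12 over the libraries left out), and with the block without number 1 (0.073) or 2 (0.027). The other 9 genes had the same direction in all 17 alternatives run.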
